A study of Homo sapiens with 9 samples.

Results

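Autophagy was followed through the transcripts of 38 genes, which were taken by gene symbol from the 48162 genes in the deposited tables. They encode the machinery that builds autophagosomes and the receptors that load them, and each of the 38 symbols was found once. In macroautophagy a double membrane grows around cytoplasm, closes, and fuses with a lysosome, where its contents are degraded. The ULK1 kinase complex starts the process, a class III phosphatidylinositol 3-kinase marks the membrane, and a pair of ubiquitin-like conjugation reactions couples proteins of the ATG8 family (the LC3 and GABARAP proteins) to it. Cargo receptors such as p62 bind both ubiquitylated cargo and ATG8 proteins, and the kinase complex mTORC1, which the study examined in relation to ATR, restrains the ULK1 complex when nutrients are plentiful.

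RNA was sequenced from SKMEL28, a human melanoma cell line, in 9 libraries. The shCont cells carried a lentiviral hairpin against GFP, which these cells do not encode, the shp16 cells a hairpin against p16 (the product of CDKN2A), and the shp16+shATR cells hairpins against p16 and against ATR, the kinase of the replication stress response, with 3 libraries in each group. All cells were grown in DMEM with 5% FBS and, after transduction, were selected for 3 days in puromycin at 1 µg/ml, so every group carried at least 1 virus and its selection. The sources used here do not say which ATR hairpin was used for RNA sequencing, or whether the single-hairpin cells received a second, control virus. The libraries are described as technical replicates of 1 experiment in 1 cell line, so the p-values below measure only the spread between these libraries.

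The targeted genes were examined first, in FPKM (fragments per kilobase of gene length, scaled to the total counted in the library). ATR stood at 5.34 in the library labelled shCont replicate 1 and at 11.8 in each of the other 2 shCont libraries. It was between 10.4 and 10.6 in shp16 and between 4.84 and 4.92 in shp16+shATR. The library labelled shCont replicate 1 therefore went against its label for this gene, with an ATR level next to that of the libraries with the ATR hairpin. For EI24 and ATG16L1, described below, the same library lay near the other shCont libraries, at 32.7 and 14.6 FPKM. The cause of its low ATR value was not tested. CDKN2A stood at 121, 91.0 and 81.0 in shCont, at 57.1, 74.8 and 79.8 in shp16, and at 64.5, 71.2 and 63.1 in shp16+shATR. The highest shp16 value lay below the lowest shCont value for CDKN2A, but the log2 fold change of -0.48 (SE 0.16) did not pass the test (adjusted p = 0.0723, edgeR). In shp16+shATR against shCont the value was -0.57 (SE 0.16) and passed (adjusted p = 0.0263). The gene also makes a second protein, ARF, whose transcript shares most of its sequence.

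The library labelled shCont replicate 1 and shp16 replicate 1 both stood apart from the other libraries of their groups. Total counts ran from 17314662 to 23588174 per library. A chi-square of the counts over genes, divided by its degrees of freedom, was 68.5 and 83.4 between the library labelled shCont replicate 1 and the other shCont libraries, against 5.15 between those 2. It was 37.9 and 37.2 between shp16 replicate 1 and the other shp16 libraries, against 1.94 between those 2, and lay between 2.95 and 9.66 within shp16+shATR. Among the members, the log2 ratio of the library labelled shCont replicate 1 to the mean of the other shCont libraries went with the length of the gene (Pearson's r = -0.63 across 38 genes, which are not independent replicates, against -0.33 across all 15776 genes tested). The ratio was 0.94 for MAP1LC3A, the shortest member at 1574 bases, and -0.89 for ATG2B, the longest at 11628 bases. For shp16 replicate 1 the members' ratios showed next to no relation to length (r = -0.000962). The part of gene length in the results below was not tested, and values from fits without 1 or both of these libraries stand beside the called members.

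**Figure D1:**
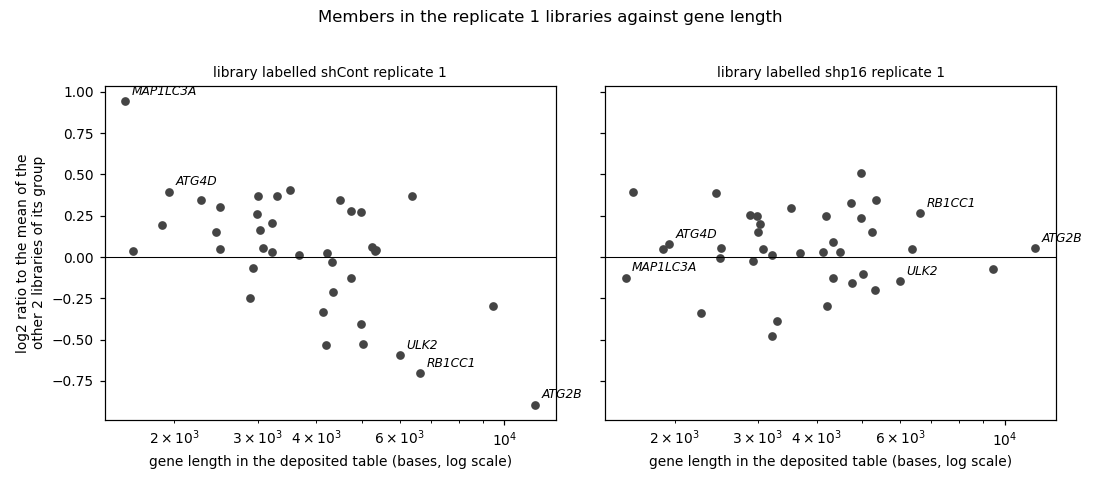
The log2 ratio of each of the 38 members in the library labelled shCont replicate 1 (left) and in shp16 replicate 1 (right) to the mean of the other 2 libraries of its group is plotted against gene length in bases on a log axis. In the left panel short genes such as MAP1LC3A (0.94) lie above 0 and long genes such as ATG2B (-0.89) lie below it, while the right panel shows no such slope.

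The cells showed the transcripts of their labelled lineage. All 7 melanocyte-lineage markers examined (MLANA, PMEL, TYR, DCT, SOX10, MITF and S100B) were above 1 FPKM, and their sum lay between 4792 and 5414 FPKM in shCont, between 2528 and 4719 for shp16 and between 3996 and 4912 for shp16+shATR. The lowest sum in shp16 was that of replicate 1, where PMEL stood at 1109 FPKM against 2917 and 2888 in the other shp16 libraries. Of 3 haematopoietic markers, PTPRC and CD3E were at 0 in every library. The sum of 2 endothelial markers was at most 0.369 FPKM. The sum of 3 stromal markers lay between 8.19 and 14.9 FPKM across the libraries, nearly all from LUM. The sum of 3 epithelial markers was 0.569 to 0.941 FPKM in shCont, 5.04 to 5.38 in shp16 cells and 5.54 to 6.29 with both hairpins, mostly from CDH1, and the part of this shift in the results was not tested.

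The autophagy transcripts spanned a wide range of levels per unit of gene length. SQSTM1, which encodes the receptor p62, was the most abundant, with a mean of 162 FPKM over the 9 libraries. It was followed by WIPI1 at 94.2, the protease ATG4B at 77.2 and the receptor TAX1BP1 at 77.0, and the last 2 did not differ beyond their spread. At the other end stood ATG2B at 2.74, the kinase ULK2 at 1.18 and GABARAP at 0.618 FPKM. GABARAP rested on 14 to 28 counts per library. It shares 2344 bases with another gene on the same strand, CTD-2545G14.7, which is listed with 0 counts in every library, and how shared reads were assigned is not given in the sources used here, so its level is uncertain.

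**Figure D2:**
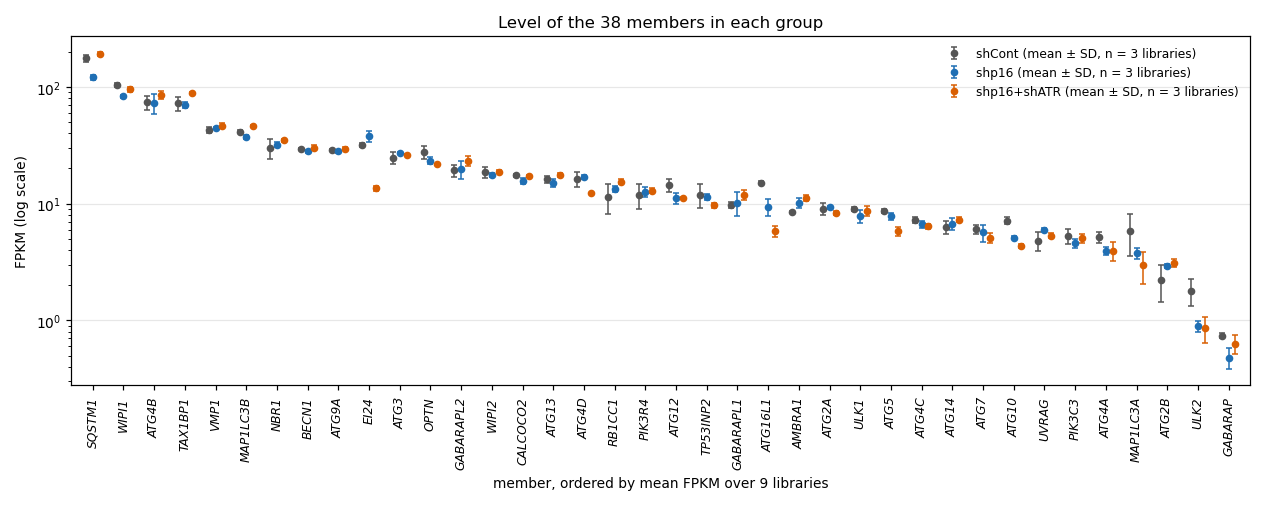
FPKM on a log axis is shown for the 38 members in order of their mean over 9 libraries, with points for the mean of each group and bars for the SD of its 3 libraries. SQSTM1 stands highest at 162 and GABARAP lowest at 0.618, and most members have closely spaced group means while EI24, ATG16L1 and ULK2 have separated ones.

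Each comparison was tested on the counts with edgeR's quasi-likelihood test over 15776 genes, and a gene was called at a Benjamini-Hochberg adjusted p under 0.05. All 38 members passed the filter on low counts. In RNA from whole cultures, fewer cells of a kind and less RNA per cell cannot be told apart. In shp16 against shCont, 6 members were called, all lower (ATG16L1, SQSTM1, ULK2, ATG10, ATG12 and WIPI1), or 15.8% of the members. Over all genes 14.8% were called, 7.23% higher and 7.59% lower. In shp16+shATR against shp16, 4 members were called, or 10.5% against 6.22% of all genes (2.73% higher and 3.49% lower). EI24, ATG16L1 and ATG5 were lower and SQSTM1 was higher. In shp16+shATR against shCont, 9 members were called, or 23.7% against 23.6% of all genes (10.9% higher and 12.7% lower). ATG16L1, EI24, ATG10, ATG5, ULK2, ATG12, MAP1LC3A and ATG4D were lower and AMBRA1 was higher. The shares in the first and last of these comparisons were close to those of all genes, and the 38 members as a set did not move one way. Their median log2 fold change was -0.07, 0.07 and 0.00 in the 3 comparisons, beside -0.02, 0.00 and -0.02 over all genes tested.

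In all, 11 members were called in at least 1 comparison and 27 in none. In shp16 against shCont the uncalled members had log2 fold changes from -0.66 to 0.42. For shp16+shATR these values ran from -0.46 to 0.39 against shp16 and from -0.38 to 0.50 against shCont. On the FPKM scale the groups did not overlap for 19, 18 and 17 of the 38 members in these comparisons, where 32.7%, 37.5% and 41.5% of all tested genes did not overlap. The 3 comparisons share libraries in pairs, so their results for a gene are not independent of each other.

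Leaving out the library labelled shCont replicate 1, alone or together with shp16 replicate 1, raised the number of calls. Leaving out shp16 replicate 1 alone did not do so throughout. In that fit 1455, 508 and 3935 of 16251 genes were called in the 3 comparisons. On all 9 libraries 2339, 981 and 3724 of 15776 were called. Without the library labelled shCont replicate 1 there were 8, 8 and 12 members called in the 3 comparisons, where 25.9%, 19.9% and 33.3% of all genes were called. Without both replicate 1 libraries there were 13, 12 and 21 members called, where 32.7%, 26.7% and 44.3% of all genes were. Of the calls made on all 9 libraries, 1 was lost without the library labelled shCont replicate 1, that of MAP1LC3A, and none was lost without both.

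**Figure D3:**
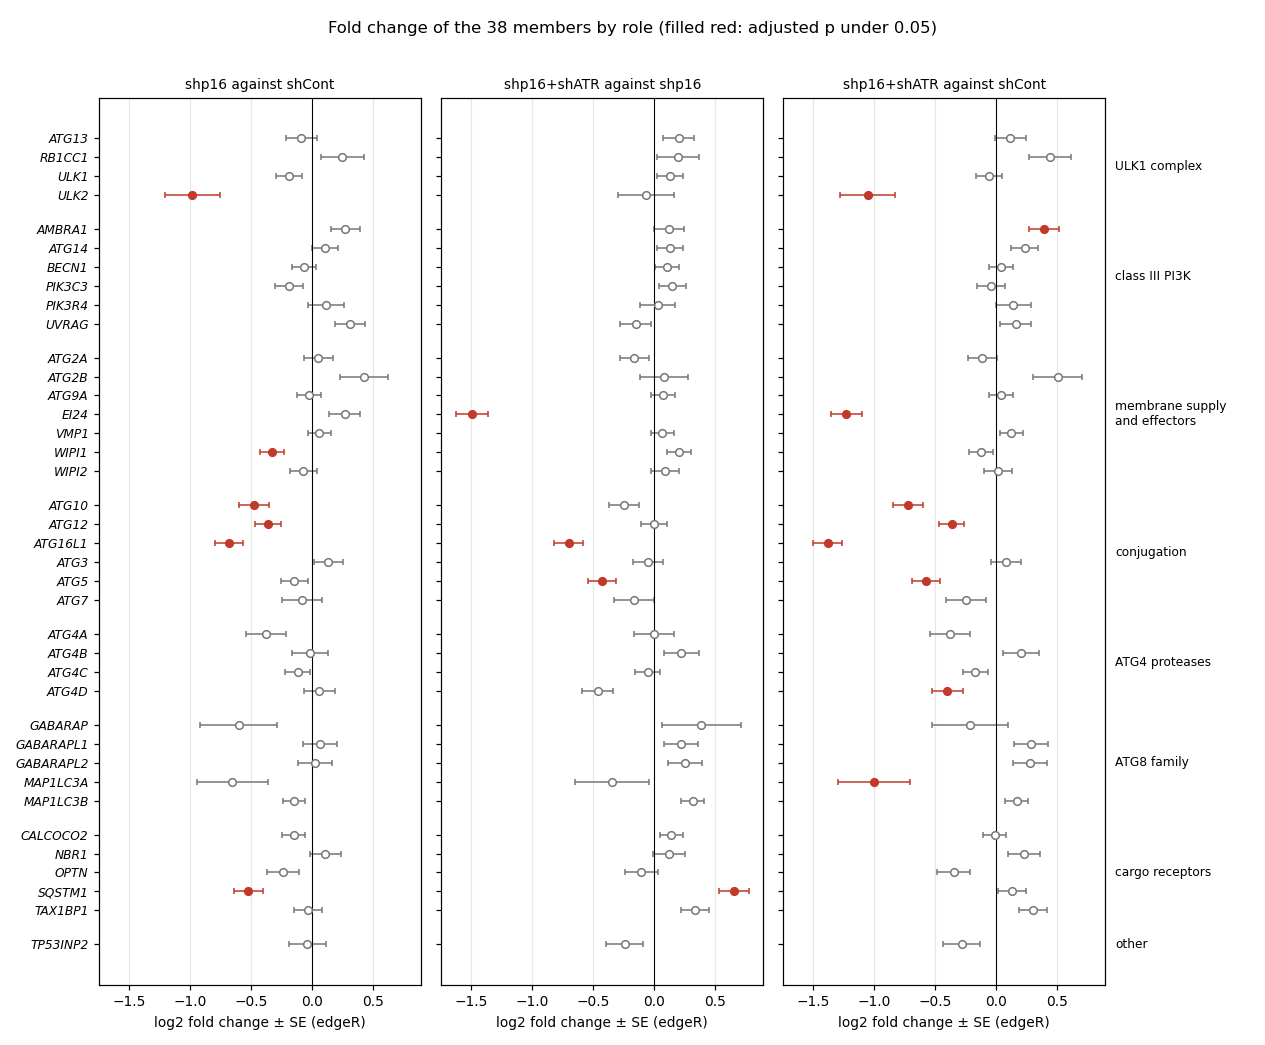
The edgeR log2 fold change of each of the 38 members, with its SE, is drawn for the 3 comparisons and grouped by the role of the protein, with filled red points for an adjusted p under 0.05. The filled points lie left of 0 except for SQSTM1 in the middle panel (0.65) and AMBRA1 in the right panel (0.39), and 4 of the 6 conjugation genes are filled in the right panel.

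Among the genes that start autophagy, ULK2 was lower in both hairpin groups than in shCont. ULK2 encodes a kinase closely related to ULK1, and the 2 can each serve as the catalytic subunit of the initiation complex. Its FPKM was 1.25 in the library labelled shCont replicate 1, 1.99 and 2.12 in the other shCont libraries, 0.778, 0.979 and 0.923 in shp16, and 0.999, 0.614 and 0.955 in shp16+shATR. All 3 shCont libraries lay above all 6 others, and the hairpin groups overlapped each other. Against shCont the log2 fold change was -0.98 (SE 0.22, adjusted p = 0.0134, edgeR) in shp16 and -1.05 (SE 0.23, adjusted p = 0.00591) in shp16+shATR. Without the library labelled shCont replicate 1 the values were -1.17 and -1.24, and without both replicate 1 libraries -1.12 and -1.25, all of them called. Without shp16 replicate 1 the first of them was -0.93 and no longer passed (adjusted p = 0.0567).

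ULK1 itself and its partners were not called in any comparison. ULK1, at 8.49 FPKM on average, had a log2 fold change of -0.19 in shp16 against shCont, and for shp16+shATR values of 0.13 against shp16 and -0.06 against shCont. ATG13, the subunit that links the kinase to its scaffold, stood at 16.2 FPKM. RB1CC1, which encodes that scaffold (FIP200), had a log2 fold change of 0.44 in shp16+shATR against shCont (adjusted p = 0.0922), which was 0.23 without the library labelled shCont replicate 1, where this long gene of 6635 bases was low.

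Of the 6 genes of the class III phosphatidylinositol 3-kinase and its regulators, 1 was called in 1 comparison. AMBRA1, a scaffold that binds Beclin 1 and recruits ubiquitin ligases, was at 8.33 FPKM in the library labelled shCont replicate 1 and at 8.71 and 8.54 in the other shCont libraries. It was at 11.2, 10.1 and 9.29 in shp16 and at 10.8, 10.7 and 11.9 in shp16+shATR, so both hairpin groups lay above shCont without overlap. Its log2 fold change was 0.39 in shp16+shATR against shCont (SE 0.12, adjusted p = 0.0352, edgeR) and 0.27 in shp16 against shCont (adjusted p = 0.155). The first of these was lost in 6 of 9 fits that left out a library, those without shCont replicate 2 or 3, shp16 replicate 2 or any shp16+shATR library, at log2 fold changes from 0.33 to 0.43 and adjusted p from 0.0564 to 0.145. It was 0.40 and called without the library labelled shCont replicate 1, and the same without both replicate 1 libraries.

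The kinase subunits themselves were not called. PIK3C3 encodes the lipid kinase VPS34, PIK3R4 its regulatory subunit VPS15, and BECN1 the Beclin 1 scaffold. BECN1 was steady, between 27.0 and 31.9 FPKM in all 9 libraries. PIK3C3 had a log2 fold change of -0.19 in shp16 against shCont, which was -0.29 and passed (adjusted p = 0.0150) without the library labelled shCont replicate 1. ATG14 and UVRAG, which bind Beclin 1 in separate complexes, stood at 6.75 and 5.35 FPKM and were not called.

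EI24 carried the largest fold change of any member. It encodes a membrane protein of the endoplasmic reticulum that is needed in autophagy and is also known as a gene that p53 induces. Its FPKM was 32.7 in the library labelled shCont replicate 1, 30.4 and 32.2 in the other shCont libraries, 42.5, 35.6 and 35.6 in shp16, and 13.1, 13.2 and 14.3 in shp16+shATR. The shp16+shATR libraries lay far below all others, and the shp16 libraries lay above shCont without overlap. In log2 terms the fold change was -1.49 (SE 0.13, adjusted p = 0.000167, edgeR) in shp16+shATR against shp16 and -1.23 (SE 0.13, adjusted p = 5.81e-05) against shCont. In shp16 against shCont it was 0.27 and did not pass (adjusted p = 0.182). That value was 0.13 without shp16 replicate 1 (adjusted p = 0.522), the highest of the 3 shp16 libraries, 0.31 without the library labelled shCont replicate 1 and 0.18 without both. Both of the falls passed in each of the 21 alternatives run, at -1.49 and -1.18 without the library labelled shCont replicate 1 and at -1.36 and -1.18 without both replicate 1 libraries. EI24 shares 14396 bases with STT3A-AS1 on the opposite strand, which held 4.56 counts per library on average, and the 4 EI24 pseudogenes in the table held 0 counts.

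WIPI1 was lower in shp16 than in shCont by a smaller step. It encodes a protein that binds phosphatidylinositol 3-phosphate on the growing membrane, and it stood second in level. Its FPKM was 109 in the library labelled shCont replicate 1, 102 and 102 in the other shCont libraries, 79.8, 83.0 and 85.5 in shp16, and 101, 95.3 and 90.8 in shp16+shATR. The 3 groups did not overlap, with shp16+shATR between the others. In shp16 the log2 fold change was -0.33 (SE 0.10, adjusted p = 0.0464, edgeR). The values for shp16+shATR against shp16, 0.20, and against shCont, -0.12, did not pass. The call in shp16 was lost whenever a library other than the one labelled shCont replicate 1 was left out (8 of 9 fits, log2 fold change from -0.37 to -0.31, adjusted p from 0.0636 to 0.155). Without the library labelled shCont replicate 1 it was -0.27 and called, and the value in shp16+shATR against shp16 then passed as well (0.20, adjusted p = 0.0360). With both replicate 1 libraries left out the value in shp16 was -0.28 and called (adjusted p = 0.00110). The span of WIPI1 lies wholly within that of PRKAR1A on the opposite strand, at 137 FPKM. Spans were compared and not exons, and strand handling is not stated, so whether the 2 genes share reads is not known.

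The other members of this group, ATG9A, ATG2A, ATG2B, WIPI2 and VMP1, were called in no comparison. ATG9A encodes the multispanning lipid scramblase that seeds the membrane, and it ranged from 27.1 to 30.4 FPKM over all 9 libraries. The span of ATG9A shares 9219 bases with ABCB6 on the same strand, which held 61.3 counts per library on average. VMP1, a scramblase of the endoplasmic reticulum, ranged from 40.6 to 48.0. ATG2B, which encodes a lipid-transfer protein, had a log2 fold change of 0.50 in shp16+shATR against shCont (adjusted p = 0.0898). It was 0.25 and passed (adjusted p = 0.0459) without the library labelled shCont replicate 1, where ATG2B was low.

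The conjugation genes held the most calls of any role. ATG12 is a ubiquitin-like protein that ATG7 activates and ATG10 transfers to ATG5, and ATG16L1 joins the product to form the complex that directs ATG8 proteins to the membrane. ATG5, ATG10, ATG12 and ATG16L1, or 4 of the 6 genes, were lower in shp16+shATR than in shCont, where 12.7% of all genes were lower. The remaining 2 genes, ATG7 and ATG3, which serve the ATG8 branch as its E1-like and E2-like enzymes, were not called in any comparison on all 9 libraries. ATG3 had a log2 fold change of 0.13 in shp16 against shCont (adjusted p = 0.510), which was 0.26 and called higher without the library labelled shCont replicate 1 (adjusted p = 0.0307) and 0.21 and called higher without both replicate 1 libraries (adjusted p = 0.0205). The count of conjugation genes was not tested as a set.

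ATG16L1 fell in each comparison. Its FPKM was 14.6 in the library labelled shCont replicate 1, 15.6 and 15.1 in the other shCont libraries, 7.65, 10.3 and 10.3 in shp16, and 6.15, 6.20 and 5.04 in shp16+shATR. The 3 groups formed separate steps with no overlap. Its log2 fold change was -0.68 (SE 0.12, adjusted p = 0.00268, edgeR) in shp16 against shCont, -0.70 (SE 0.12, adjusted p = 0.00601) in shp16+shATR against shp16 and -1.38 (SE 0.12, adjusted p = 1.53e-05) in shp16+shATR against shCont. They were -0.68, -0.70 and -1.38 without the library labelled shCont replicate 1 and -0.58, -0.80 and -1.38 without both replicate 1 libraries, and all passed. No gene of the table overlaps ATG16L1.

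ATG10 fell in shp16 and was lowest in shp16+shATR. Its FPKM was 7.41 in the library labelled shCont replicate 1, 6.61 and 7.47 in the other shCont libraries, 5.30, 5.10 and 4.96 in shp16, and 4.38, 4.11 and 4.52 in shp16+shATR. The groups did not overlap. Against shCont its log2 fold change was -0.48 (SE 0.12, adjusted p = 0.0249, edgeR) in shp16 and -0.72 (SE 0.13, adjusted p = 0.00161) in shp16+shATR, while that of shp16+shATR against shp16, -0.25, did not pass (adjusted p = 0.305). The call in shp16 was lost without shCont replicate 3 (-0.45), shp16 replicate 2 (-0.45) or shp16 replicate 3 (-0.43), with adjusted p from 0.0568 to 0.101. Both calls against shCont were kept without the library labelled shCont replicate 1, at -0.43 and -0.67, and without both replicate 1 libraries at -0.49 and -0.68. The span of ATG10 overlaps that of RPS23 on the opposite strand over 3500 bases, and RPS23 held 246 counts per library on average.

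ATG12 was lower in both hairpin groups by about the same amount. Its FPKM was 12.4 in the library labelled shCont replicate 1, 15.5 and 15.3 in the other shCont libraries, 9.84, 11.8 and 11.7 in shp16, and 11.2, 10.9 and 11.2 in shp16+shATR. All shCont libraries lay above all others. Its log2 fold change was -0.36 in shp16 (SE 0.10, adjusted p = 0.0362, edgeR) and -0.37 in shp16+shATR (SE 0.10, adjusted p = 0.0242). The call in shp16 was lost without any 1 of the 8 libraries other than that labelled shCont replicate 1, at -0.38 to -0.32 (adjusted p from 0.0664 to 0.109). The call in shp16+shATR was lost without shCont replicate 2 or 3 or any shp16+shATR library, at -0.38 to -0.33 (adjusted p from 0.0641 to 0.105). Both were -0.44 and called without the library labelled shCont replicate 1, and -0.39 and -0.44 and called without both replicate 1 libraries.

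ATG5 was lower in shp16+shATR. Its FPKM was 9.12 in the library labelled shCont replicate 1, 8.49 and 8.36 in the other shCont libraries, 7.38, 8.35 and 7.66 in shp16, and 5.41, 6.35 and 5.65 in shp16+shATR. The shp16+shATR libraries lay below all others. The log2 fold change was -0.58 against shCont (SE 0.11, adjusted p = 0.00352, edgeR), a call kept in each of 21 alternatives, and -0.43 against shp16 (SE 0.11, adjusted p = 0.0458). The second call was lost without any 1 of the 8 libraries other than that labelled shCont replicate 1, at -0.49 to -0.38 (adjusted p from 0.0533 to 0.214). Both were called without the library labelled shCont replicate 1, at -0.51 and -0.43, and without both replicate 1 libraries, at -0.51 and -0.43. The value in shp16 against shCont was -0.15 and did not pass (adjusted p = 0.418), and it was -0.08 without the library labelled shCont replicate 1.

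**Figure D4:**
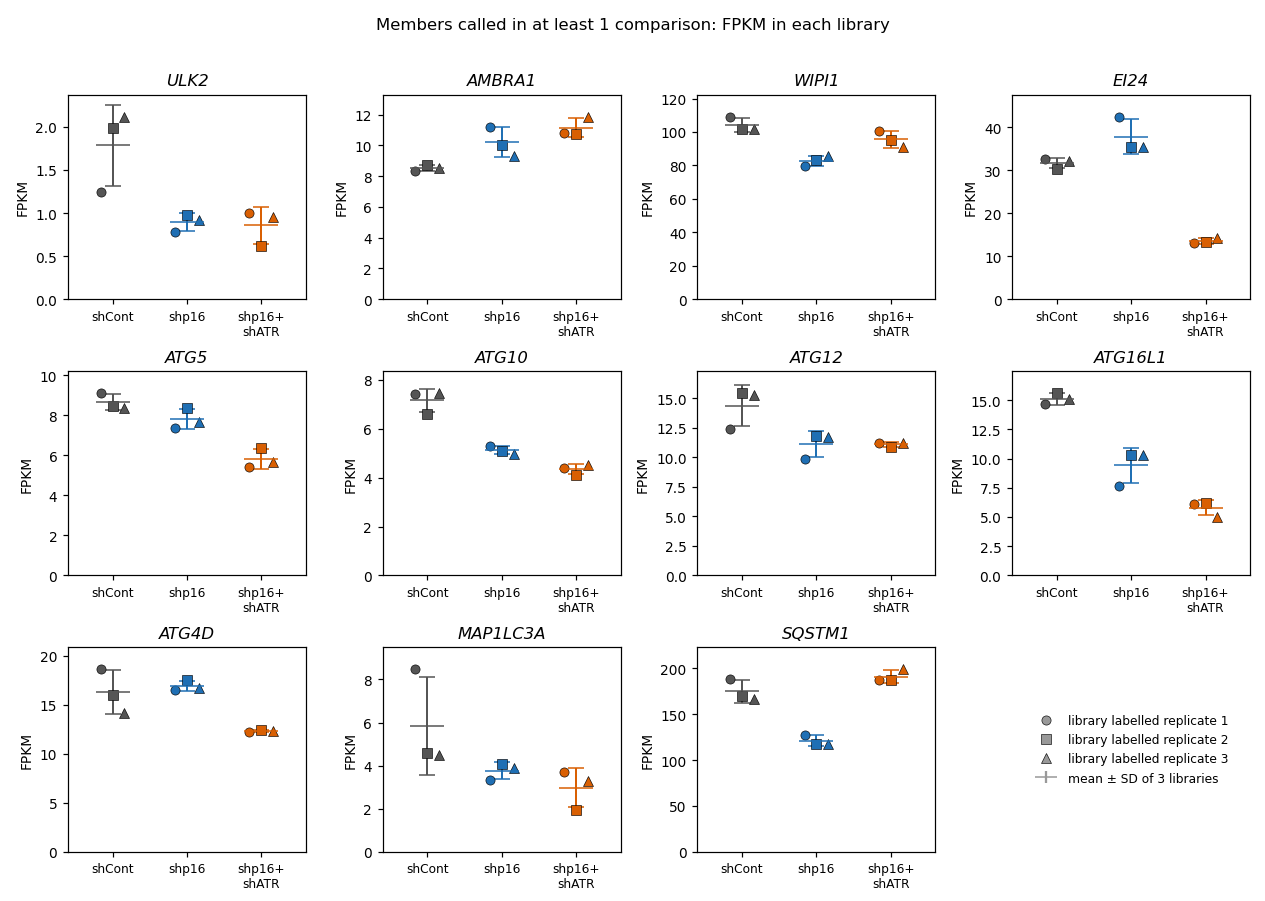
FPKM in each library is plotted for the 11 members called in at least 1 comparison, with 1 symbol per replicate number and the mean and SD of the 3 libraries of each group, on axes that start at 0. EI24 drops to 13.1 to 14.3 in shp16+shATR alone, ATG16L1 steps down through the 3 groups, SQSTM1 is low in shp16 alone, and the library labelled shCont replicate 1 stands above its group for MAP1LC3A at 8.48 and below it for ULK2 at 1.25.

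The ATG4 proteases trim ATG8 proteins before conjugation and release them afterwards. ATG4B held most of the family's transcript per length, with 71.9% ± 1.5 of the summed FPKM in shCont, 72.3% ± 3.5 in shp16 and 78.9% ± 1.1 with both hairpins (SD, n = 3 libraries), and it was not called in any comparison on all 9 libraries. Its log2 fold change of 0.20 in shp16+shATR against shCont was 0.33 and called higher without the library labelled shCont replicate 1 (adjusted p = 0.0470) and without both replicate 1 libraries (adjusted p = 0.000380), and in shp16 against shCont it was called in the second of these fits (0.23, adjusted p = 0.0157). ATG4D was the called protease. Its FPKM was 18.6 in the library labelled shCont replicate 1, 15.97 and 14.2 in the other shCont libraries, 16.5, 17.5 and 16.7 in shp16, and 12.2, 12.4 and 12.3 in shp16+shATR. The shp16+shATR libraries lay below all others, while shCont and shp16 overlapped. The log2 fold change was -0.40 in shp16+shATR against shCont (SE 0.13, adjusted p = 0.0385, edgeR) and -0.46 against shp16 (SE 0.13, adjusted p = 0.0530). The first was lost in 6 of 9 fits that left out a library, those without shCont replicate 2, shp16 replicate 2 or 3 or any shp16+shATR library, at -0.44 to -0.39 (adjusted p from 0.0564 to 0.123). With the library labelled shCont replicate 1, its highest value, left out, the first was smaller, -0.26, and called (adjusted p = 0.0320), and it was -0.27 and called without both replicate 1 libraries. The second passed without the library labelled shCont replicate 1 (-0.46, adjusted p = 0.00126) and without shCont replicate 3 (-0.46, adjusted p = 0.0388). ATG4A and ATG4C, at 4.35 and 6.77 FPKM, were not called.

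Within the ATG8 family, MAP1LC3B made up 53.8% ± 3.6 of the summed FPKM in shCont, 52.4% ± 4.1 in shp16 and 54.4% ± 1.7 with both hairpins (SD, n = 3 libraries). Its protein, LC3B, is the usual marker of autophagosomes. The family sum includes GABARAP, whose level is uncertain as said above, so the shares carry that uncertainty, which the SDs do not measure. MAP1LC3B stood at 40.6 FPKM in the library labelled shCont replicate 1, 41.0 and 42.4 in the other shCont libraries, 35.8, 36.6 and 38.9 in shp16, and 46.9, 45.8 and 46.1 in shp16+shATR. The groups did not overlap, with shp16 lowest. The log2 fold change in shp16+shATR against shp16 was 0.31 (SE 0.09, adjusted p = 0.0701, edgeR), which passed without the library labelled shCont replicate 1 (0.31, adjusted p = 0.00370) and with DESeq2.

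MAP1LC3A, which encodes LC3A, was called lower in shp16+shATR than in shCont, and the call was lost without any 1 of 3 libraries. Its FPKM was 8.48 in the library labelled shCont replicate 1, 4.61 and 4.48 in the other shCont libraries, 3.31, 4.08 and 3.88 in shp16, and 3.71, 1.95 and 3.26 in shp16+shATR. All shCont libraries lay above all others, by a narrow margin apart from the library labelled shCont replicate 1. The fitted log2 value was -1.0 (SE 0.30, adjusted p = 0.0297, edgeR). It was -0.59 and no longer passed without the library labelled shCont replicate 1 (adjusted p = 0.0648), -0.75 without shp16+shATR library b (adjusted p = 0.117) and -1.09 without library c (adjusted p = 0.0629), and -0.61 and called without both replicate 1 libraries (adjusted p = 0.0221). GABARAPL1 and GABARAPL2, at 10.6 and 20.7 FPKM, were not called. GABARAPL2 had a log2 fold change of 0.27 in shp16+shATR against shCont, which was 0.39 and passed without the library labelled shCont replicate 1 (adjusted p = 0.0152).

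Among the cargo receptors, SQSTM1 was lower in shp16 than in both other groups. Its product p62 carries ubiquitylated proteins to autophagosomes and is itself degraded there, which these RNA data do not measure. SQSTM1 stood at 189 FPKM in the library labelled shCont replicate 1, 170 and 166 in the other shCont libraries, 128, 118 and 117 in shp16, and 187, 187 and 199 in shp16+shATR. The shp16 libraries lay below all 6 others, while shCont and shp16+shATR overlapped. The log2 fold change was -0.52 in shp16 against shCont (SE 0.12, adjusted p = 0.0130, edgeR), 0.65 in shp16+shATR against shp16 (SE 0.12, adjusted p = 0.00884) and 0.13 in shp16+shATR against shCont (SE 0.12, adjusted p = 0.477). SQSTM1 was the 1 member called in opposite directions in different comparisons, and the first 2 comparisons share the shp16 libraries. The fall was lost without shp16 replicate 2 (-0.48) or replicate 3 (-0.48), at adjusted p of 0.0635 and 0.0651. The rise was lost without shp16 replicate 2 (0.61), shp16 replicate 3 (0.60) or shp16+shATR library c (0.61), at adjusted p from 0.0541 to 0.0548. Without the library labelled shCont replicate 1 the 3 values were -0.44, 0.65 and 0.22, and without both replicate 1 libraries they were -0.52, 0.73 and 0.21, the last of which then passed (adjusted p = 0.00251). SQSTM1 overlaps MGAT4B and C5orf45 on the opposite strand over 565 and 3643 bases.

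The other receptors were not called. TAX1BP1, a ubiquitin-binding receptor, stood at 61.5 FPKM in the library labelled shCont replicate 1, 75.2 and 80.7 in the other shCont libraries, 74.2, 66.5 and 69.3 in shp16, and 88.2, 88.3 and 89.5 in shp16+shATR. The shp16+shATR libraries lay above all others. Its log2 fold change in shp16+shATR against shp16 was 0.33 (adjusted p = 0.125, edgeR), which passed without the library labelled shCont replicate 1 (adjusted p = 0.0140). NBR1 stood at 32.2 FPKM, OPTN (optineurin) at 24.2 and CALCOCO2 (NDP52) at 16.8 on average. The log2 fold change of OPTN in shp16+shATR against shCont was -0.35 (adjusted p = 0.0817, edgeR), and it passed in 5 of 21 alternatives. It was -0.21 without the library labelled shCont replicate 1 (adjusted p = 0.112), and -0.21 and called without both replicate 1 libraries (adjusted p = 0.00550). SQSTM1 made up 54.3% ± 3.8 of the receptors' summed FPKM in shCont, 46.2% ± 0.24 in shp16 and 54.0% ± 0.80 with both hairpins (SD, n = 3 libraries). TP53INP2, an ATG8-binding protein, ranged from 8.72 to 13.9 FPKM and was not called, but its log2 fold change of -0.28 in shp16+shATR against shCont was -0.45 and passed without the library labelled shCont replicate 1 (adjusted p = 0.00417). The span of TP53INP2 lies wholly within that of NCOA6 on the opposite strand, which held 1369 counts per library on average.

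The rest of the pathway was read from lists of 49 further genes, of which 46 were tested. In shp16 against shCont, 3 were higher and 1 lower, or 8.70% against 14.8% of all genes. VPS33A, a subunit of the HOPS tethering complex for fusion with lysosomes, rose from 2.08, 2.14 and 2.05 FPKM in shCont (the first in the library labelled replicate 1) to 3.34, 2.88 and 3.17 (log2 fold change 0.59, SE 0.14, adjusted p = 0.0180, edgeR). TECPR1 (0.38, adjusted p = 0.0228) and RUBCN, which encodes the autophagy inhibitor Rubicon (0.50, adjusted p = 0.0318), were higher, and CCPG1, a receptor for the endoplasmic reticulum, was lower (-0.42, adjusted p = 0.0433). In shp16+shATR against shp16, 3 fusion genes were lower and none was higher, or 6.52% against 6.22% of all genes.

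The 3 fusion genes that fell on adding the ATR hairpin were VPS18 and VPS39, further HOPS subunits, and PLEKHM1, an adaptor between ATG8 proteins, RAB7 and HOPS. VPS18 went from 26.1, 20.9 and 23.5 FPKM in shp16 to 15.5, 14.8 and 17.3 (log2 fold change -0.58, SE 0.13, adjusted p = 0.0238, edgeR). VPS39 (-0.45, adjusted p = 0.0260) and PLEKHM1 (-0.38, adjusted p = 0.0442) followed, while VPS33A had a value of 0.50 in the other direction (adjusted p = 0.0566). In shp16+shATR against shCont, 8 of the 46 were higher and 2 lower, or 21.7% against 23.6% of all genes. Among them was TFEB, a transcription factor of lysosomal and autophagy genes, at 0.506, 0.534 and 0.330 FPKM in shCont (the first in the library labelled replicate 1), 0.507, 0.619 and 0.501 in shp16 and 0.979, 0.931 and 1.20 in shp16+shATR. All shp16+shATR libraries lay above all others (log2 fold change against shCont 1.18, SE 0.26, adjusted p = 0.00765, edgeR). Against shp16 the value was 0.93 (SE 0.26, adjusted p = 0.0575), and without both replicate 1 libraries the values were 1.29 and 0.92, both called.

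Of these 46 genes, 8, 11 and 17 were called in the 3 comparisons without the library labelled shCont replicate 1. Over all genes 25.9%, 19.9% and 33.3% were called in that fit. Without both replicate 1 libraries 11, 18 and 21 of the 46 were called, where 32.7%, 26.7% and 44.3% of all genes were. No call of the 9-library fit was lost in either of these fits. In the same order of fits, the values in shp16 against shCont were 0.61 and 0.52 for VPS33A, 0.36 and 0.34 for TECPR1, 0.39 and 0.25 for RUBCN and -0.45 and -0.45 for CCPG1. Adding the ATR hairpin gave -0.58 and -0.45 for VPS18, -0.45 and -0.47 for VPS39, -0.38 and -0.36 for PLEKHM1, and 0.50 and 0.58, then called, for VPS33A. Leaving out other single libraries ended each of these 7 calls in 3 to 8 of 9 fits. VPS33A lost its call without shCont replicate 2 or shp16 replicate 1 or 3 (from 0.50 to 0.61, adjusted p from 0.0507 to 0.0633). TECPR1 lost it without shCont replicate 3, shp16 replicate 1 or 3 or library a (from 0.36 to 0.38, adjusted p from 0.0510 to 0.0890), and RUBCN without shp16 replicate 1 or 3 or any shp16+shATR library (from 0.36 to 0.55, adjusted p from 0.0531 to 0.114). VPS18 lost it without shp16 replicate 1 or 3 or any shp16+shATR library (from -0.66 to -0.45, adjusted p from 0.0514 to 0.133). VPS39 lost it without any shp16 or shp16+shATR library (from -0.52 to -0.40, adjusted p from 0.0584 to 0.131). CCPG1 (from -0.48 to -0.33, adjusted p from 0.0572 to 0.141) and PLEKHM1 (from -0.40 to -0.35, adjusted p from 0.0523 to 0.213) lost it without any 1 of the 8 libraries other than that labelled shCont replicate 1.

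None of the 17 receptors and adaptors for organelles was called in shp16+shATR against shp16 by edgeR, where 6.22% of all genes were. Of the 17, 2 had an unadjusted p under 0.05. RETREG1 was called higher without the library labelled shCont replicate 1 (log2 fold change 0.48, adjusted p = 0.0461, edgeR), a fit in which 19.9% of all genes were called. Without both replicate 1 libraries RETREG1 (0.49, adjusted p = 0.0372), RTN3 (0.32, adjusted p = 0.000316) and BCL2L13 (0.24, adjusted p = 0.00221) were called higher. In that fit 26.7% of all genes were called.

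TFEB and the melanocyte factor MITF bind the sequence CACGTG, so promoters of the members were searched for it. RefSeq promoter windows on GRCh38.p14, from 250 bases before to 50 after the gene's start, were matched for 34 of the 38 members. The letters CACGTG, which read the same on both strands, were present for 2 of the 34 (5.88%), ATG3 and ATG14, against 7.26% of all 35116 windows. The windows of the 9 called members that were matched did not hold them. The sites are shown with 10 bases on each side and the motif in capitals, 5′ to 3′ on the minus strand, on which both genes lie. They are at chr3:112561965-112561990 and chr3:112561942-112561967, before and after the start of ATG3, and at chr14:55411836-55411861, before the start of ATG14.
ATG3 before the start: tttctcacgtCACGTGccgggagagt
ATG3 after the start: agtctagtgtCACGTGaggccccggt
ATG14: aacaaaatccCACGTGactggctctc
Neither gene was called in any comparison on all 9 libraries, and the match describes the letters in these windows only.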

How the data were processed

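RNA was sequenced from SKMEL28 cells in 9 libraries prepared with the NEBNext Ultra 2 kit. Per the labels' processing notes, STAR 2.6.1 was among the tools and GRCh38 was the build, but gene positions in the deposited tables follow GRCh37, so none are printed for genes. The annotation release and strand handling are not given in the sources used here.

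The authors deposited raw counts per gene without normalization, and FPKM, which equalled each count scaled by gene length and library total (largest relative difference 4.22e-07). The 3 count columns of shp16+shATR bear 1 name and are called libraries a, b and c. Their values match FPKM replicates 1, 2 and 3.

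Counts of all 9 libraries were fitted together after filterByExpr and TMM with edgeR 4.0.16 in R 4.3.3, without a replicate term. The fits were tried on simulated counts with known changes, in which no library stood apart from its group as the replicate 1 libraries do here. Alternatives were DESeq2 1.42.0, other scalings and filters, limma 3.58.1 on log2(FPKM + 1) or log2(FPKM + 0.1), the 2 groups compared alone, a replicate block, shp16 replicates 2 and 3 summed, an adjusted p of 0.01, and each library left out. Leaving out both replicate 1 libraries, and leaving out libraries for the further genes of the pathway, were chosen after seeing the data. Percentages of a family's FPKM were computed per library.

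The 38 members, the roles and the lists of further genes were chosen with earlier results of these data known. Values in every library were given for members called in any comparison. MAP1LC3B, TAX1BP1 and TFEB were added after their values were seen.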

Additional observations from a re-analysis of the deposited data

How the results depend on the processing

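Of the 19 calls of a member in a comparison, 5 passed in every alternative, namely EI24 in shp16+shATR against shp16 and, in shp16+shATR against shCont, EI24, ATG16L1, ATG10 and ATG5. No called fold change changed direction. In shp16 against shCont 6 members were called, and in shp16+shATR 4 against shp16 and 9 against shCont. These counts ranged over fits that left out 1 library from 2 to 8, 2 to 8 and 5 to 12. On all 9 libraries 2339, 981 and 3724 of 15776 genes were called. Without shp16 replicate 2 or 3 the count of members was 2 in each of the first 2 comparisons. There 1362 and 391 of 16223 genes were called without replicate 2, and 1344 and 395 of 16218 without replicate 3. The second count was also 2 without shp16+shATR library c, where 372 of 16201 genes were called. The highest counts, 8, 8 and 12, came without the library labelled shCont replicate 1, where 4192, 3223 and 5395 of 16184 genes were called. The 5 in the last came without shp16+shATR library b or c, where 2360 of 16165 and 2410 of 16201 genes were called. The first count was also 3 without shCont replicate 3 or shp16 replicate 1, where 2316 of 16204 and 1455 of 16251 genes were called. Leaving out both replicate 1 libraries gave 13, 12 and 21, where 5264, 4304 and 7130 of 16104 genes were called. Fitting only the groups compared gave 2 in the first and 8 in the second, where 1186 of 15153 and 2878 of 15209 genes were called. Summing shp16 replicates 2 and 3 gave 2 in each of these, where 1368 and 399 of 16200 genes were called. An adjusted p under 0.01 gave 1 in the first and 5 in the last, where 994 and 1974 of 15776 genes were called. Some of these fits hold fewer libraries, and the causes of the changes were not tested.

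Replicate numbers did not pair the libraries. Of 9 same-numbered pairs, 2 had a correlation of their deviations from the group means over 0.1 (from -0.303 to 0.289), and 3 of 9 libraries correlated best with one of their own number. With a replicate block, limma on log2(FPKM + 1) called 3, 2 and 8 members, against 5, 5 and 9 without it. Of 15776 genes it called 1513, 481 and 2985 with the block and 2060, 901 and 3580 without it. On shCont and shp16 alone edgeR called 0 members with the block, against 2 without it, where 423 and 1186 of 15153 genes were called. Medians moved by less than the spread between libraries in every alternative. Upper-quartile scaling changed the split of all called genes from 1141 higher and 1198 lower to 922 and 1475 in shp16 against shCont, and from 430 and 551 to 533 and 451 in shp16+shATR against shp16. GABARAP and ULK2 had the fewest fragments per length.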
